A study of Mus musculus with 10 samples.

Results

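The genes described here carry iron through its storage, uptake, export and sensing in the cell: Ftl1, Fth1, Tfrc, Trf, Slc40a1, Slc11a2, Ncoa4, Aco1, Ireb2 and Cp. They were chosen by name, and all 10 were found in the deposited table of 55487 genes and were among the 18956 genes with enough counts to be tested. RNA from 10 mouse ovaries was sequenced, with a library for each ovary, and all mice had the C57BL/6J background. The Control group (n = 4, numbered 31, 32, 33 and 34) was 8 weeks old. The Aged group (n = 3, numbered 31, 33 and 34) was 11 months old by the labels and 10 months by the study's methods. The Aged+CF group (n = 3, numbered 30, 32 and 34) had the same age and received cell-free fat extract (CEFFE), a protein extract of adipose tissue from which the cells were removed. By the study's methods CEFFE was given into the tail vein as 200 µL at 3 µg/µL, every 2 days for 2 weeks, and Control and Aged mice received saline. Every mouse, whatever its group, had an injection of 10 IU of the gonadotropin PMSG 48 h before its ovaries were taken.

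Iron inside cells is kept in ferritin, a shell built of light chains (Ftl1) and heavy chains (Fth1), and the heavy chain oxidises the iron that enters. Transferrin (Trf) carries iron in the blood, its receptor (Tfrc) brings it into the cell, Slc11a2 moves it out of the endosome, and Ncoa4 delivers ferritin to the lysosome so that the iron can be used again. Iron leaves through ferroportin (Slc40a1), helped by ferroxidases such as ceruloplasmin (Cp). The iron regulatory proteins, made from Aco1 and Ireb2, bind a hairpin in the messages for ferritin, ferroportin and the transferrin receptor when iron is scarce. In the ovary iron serves growing follicles and the enzymes of steroid synthesis, and the clearance of old red cells and of regressing corpora lutea by macrophages leaves iron to be stored.

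The total of counted reads lay between 15761789 and 18831795 in the Control ovaries, between 16295044 and 18137568 in the Aged ovaries and between 17023099 and 21318254 in the Aged+CF ovaries. Levels are given as CPM, read counts scaled to a common library total with TMM, which also corrects for differences in library composition. The ovaries of the Aged group were the least alike, with a coefficient of biological variation of 0.378 against 0.209 in Control and 0.193 in Aged+CF. Control 33 and Aged 34 held reads of the oviduct gene Ovgp1, at 298 and 245 CPM, where the other ovaries had 31.2 CPM or less. Aged 34 also had the lowest summed oocyte markers, at 37.1 CPM.

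Compared per kilobase of annotated exon over the 10 ovaries, Ftl1 had the highest level of the iron genes, at 629 ± 305 CPM per kilobase (SD, n = 10), followed by Fth1 at 166 ± 57.3. Aco1 came next at 40 ± 4.16 CPM per kilobase, Trf at 27.8 ± 7.98 and Ireb2 at 14.2 ± 0.963. Slc40a1 stood at 11.4 ± 2.04, Slc11a2 at 9.64 ± 1.11, Tfrc at 8.85 ± 3.95, Ncoa4 at 5.01 ± 1.31 and Cp at 4.5 ± 1.86 CPM per kilobase. This order is that of means over all 10 ovaries. In the Aged group Tfrc, at 12.1, stood above Slc11a2 at 10.5 and Slc40a1 at 9.72, and Cp, at 6.87, above Ncoa4 at 5.47 CPM per kilobase. Ferritin messages stood far above those of every other iron gene, while the neighbours from Slc40a1 through Slc11a2 to Tfrc, and Ncoa4 and Cp, lay within their spread of each other. The deposited FPKM values, which use another length per gene, gave the same order over all ovaries, from a mean of 261 FPKM for Ftl1 to 2.9 FPKM for Cp.

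Aged vs Control asks how ovarian ageing alters the tissue and is here the ageing comparison. The treatment comparison, Aged+CF vs Aged, asks what CEFFE does in the aged ovary, and Aged+CF vs Control asks how far treated ovaries are from young ones. A gene was called when it differed by at least 1.5-fold with a Benjamini-Hochberg adjusted p under 0.05 in the edgeR quasi-likelihood test. In the ageing comparison 2 of the 10 iron genes were called, Fth1 and Cp, both higher, against 11.1% of all genes tested. With the unadjusted p in place of the adjusted p the count was again 2, against 18.2% of all genes. Over all genes 948 were called higher and 1148 lower, a split of 650 and 1631 when libraries were scaled by their totals alone, which shifts the median log2 fold change of all genes to −0.13. The number of all genes called, 2096, was 1081 without Control 32 and 1090 without Control 34. The median log2 fold change of the iron genes was 0.43, beside 0 over all genes, with 8 higher and 2 lower.

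The treatment comparison had none of the iron genes called by edgeR at the adjusted p, against 0.00528% of all genes, a single gene. By the unadjusted p 2 were called, Fth1 and Cp, both lower, against 7.96% of all genes. The DESeq2 Wald test at its adjusted p also called 2. Over all 18956 genes that test called 214 higher and 228 lower. The median log2 fold change was −0.12 for the iron genes and −0.02 for all genes. Against Control, the treated ovaries gave an edgeR count of 0 against 0.179% of all genes. By the unadjusted p it was 2, Ftl1 and Cp, both higher, against 7.69%, and the value of Ftl1 carries a doubt about counting given below. DESeq2 called 2, and over all 18956 genes it called 310 higher and 218 lower. The medians were 0.12 and −0.03. The comparisons share their Aged or Control ovaries, so their results for a gene are given side by side and are not independent of each other. Without Aged 34 the number of all genes called was 556 in place of 1 for the treatment and 348 in place of 34 for Aged+CF vs Control, with none of the iron genes among them.

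Ferritin heavy chain was called higher with age. Fth1 (ENSMUSG00000024661, GRCm38 chr19:9980598-9985098, plus strand) read 396, 499.9, 449 and 479.5 CPM in Control 31, 32, 33 and 34. It read 599, 824 and 1029 CPM in Aged 31, 33 and 34, and 531, 467 and 473 CPM in Aged+CF 30, 32 and 34. Every Aged ovary stood above every Control and every Aged+CF ovary, whereas Control and Aged+CF overlapped. The mean was 817 ± 215 CPM (SD) over the 3 Aged ovaries, against 456 ± 45.2 over the 4 Control and 490.2 ± 35.6 over the 3 Aged+CF ovaries. With age Fth1 was 1.79-fold higher, a log2 fold change of 0.84 ± 0.17 (SE), with an edgeR adjusted p of 0.0129 after Benjamini-Hochberg adjustment. Without Aged 34, the highest of all, it was 0.68 and still called. With the ovary number as a block, by which the labels do not pair ovaries, Fth1 had a value of similar size but missed the adjusted threshold. Under treatment its log2 fold change was −0.74 ± 0.18, which met the threshold by the unadjusted p but not by the adjusted one (edgeR adjusted p = 0.161), while the DESeq2 Wald test called it (0.00742). Without Aged 34 this was −0.55, short of 1.5-fold. Treated against Control ovaries, Fth1 stood at 0.1 ± 0.17. In bulk RNA more ferritin message per cell and more cells rich in ferritin cannot be told apart.

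**Figure D1:**
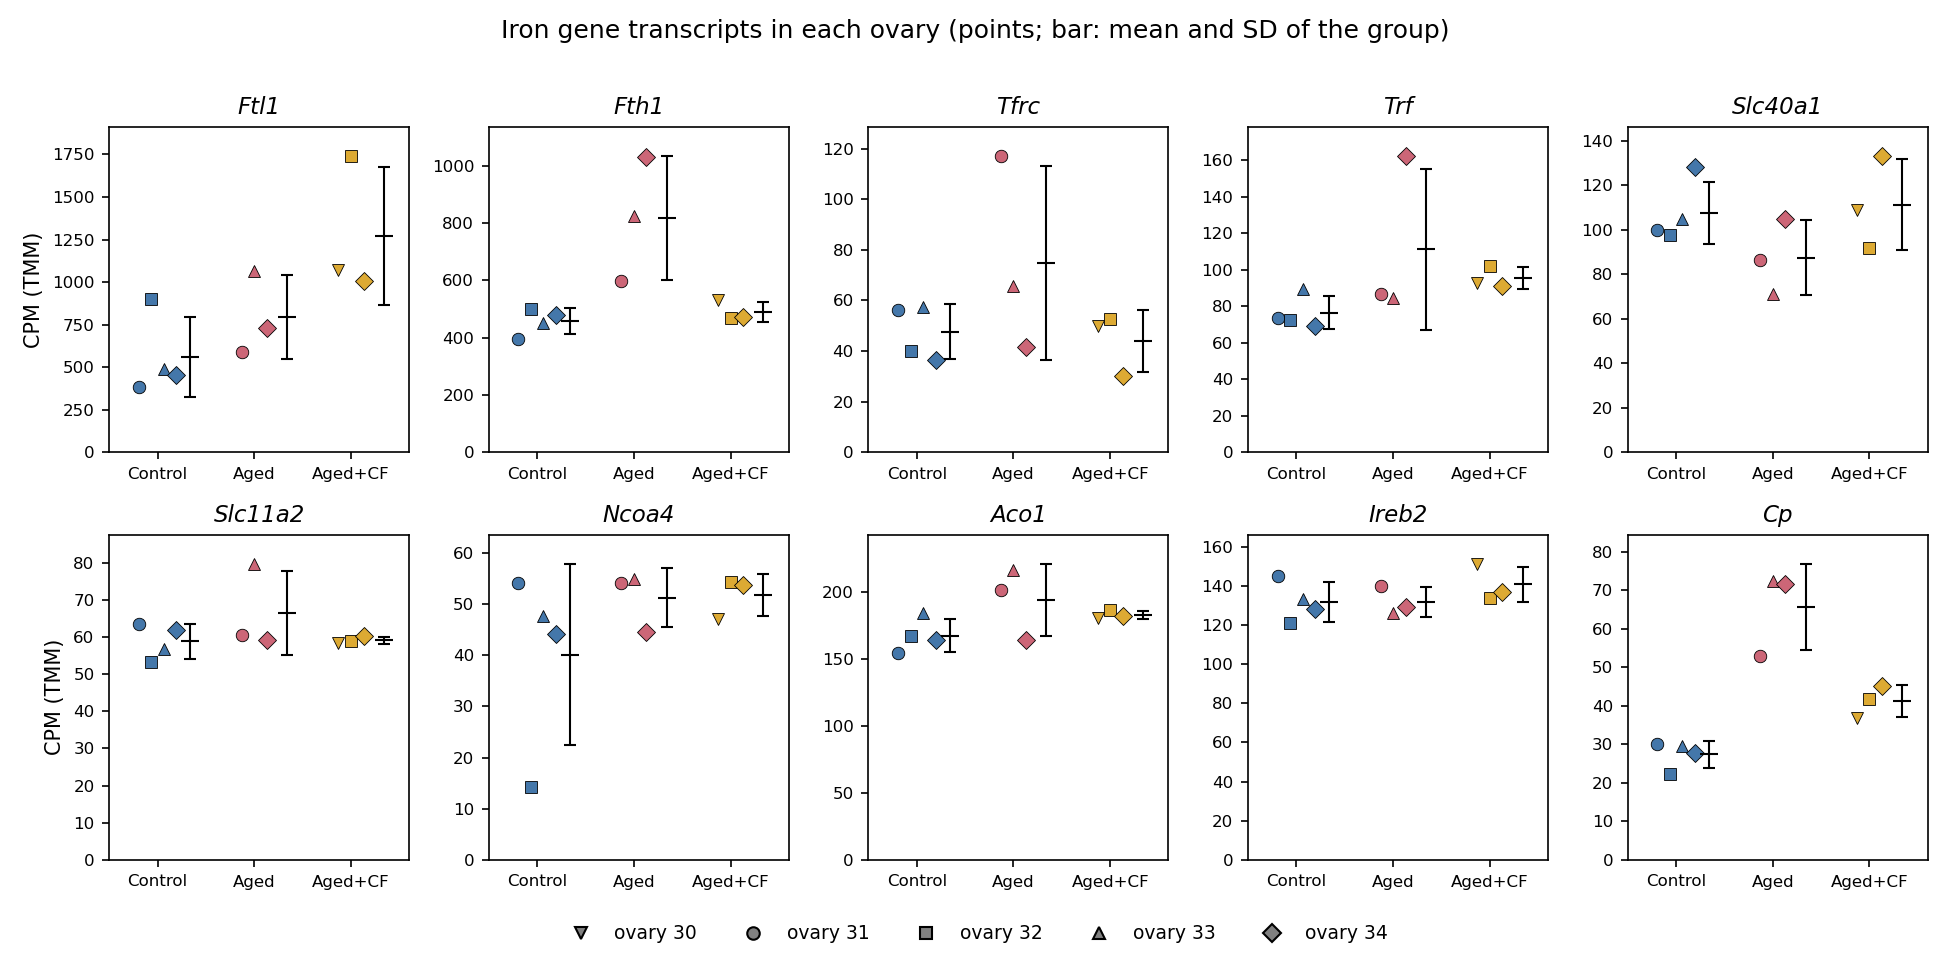
Transcript level of each iron gene in CPM (vertical axis, from 0) in each ovary of the Control, Aged and Aged+CF groups; symbols give the ovary's number and bars the mean and SD of the group. All Aged ovaries stand above all others in Fth1 and in Cp. Control 32 is the highest Control ovary in Ftl1 and the lowest of all ovaries in Ncoa4.

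Ferritin light chain needs more care, because its counts moved with those of a small RNA gene. Ftl1 (ENSMUSG00000050708, GRCm38 chr7:45457944-45459884, minus strand) holds within its last exon the predicted microRNA gene Gm22133 (chr7:45458089-45458197) on the same strand. All stretches of 50 bases in Gm22133 (100%) also occur in Ftl1 transcripts, so that a read of such a stretch can be given to either gene. Gm22133 had 4020 counts in Control 32 and 4387, 6804 and 5925 in Aged+CF 30, 32 and 34, but exactly 1 count in each of the other 6 ovaries. Nothing lay in between, and the ovaries with 4020 counts or more were all 3 of Aged+CF and 1 of Control.

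Ftl1 itself read 383, 902, 490 and 456 CPM in Control 31, 32, 33 and 34. In the Aged ovaries it read 587, 1066 and 728 CPM, and in the Aged+CF ovaries 1069, 1739 and 1008. Control 32 was the highest Control ovary by a wide margin, and the Aged+CF ovaries were above all Control ovaries. These counts can be set beside those of Ftl1-ps1 (ENSMUSG00000062382), a second light chain gene on chromosome 13 that shares 47.3% of the 50-base stretches of Ftl1 transcripts. Of its own stretches, 57.6% occur in Ftl1, so reads can be given to either gene and the ratio does not tell which count shifted. Ftl1 had 1.48 times the counts of Ftl1-ps1 in Control 32 and 1.72, 1.69 and 1.45 times in the Aged+CF ovaries. In the 6 ovaries with 1 count on Gm22133 the ratio was 0.711, 0.971 and 0.725 in Control and 0.726, 0.705 and 0.74 in Aged. The 4 libraries with a high count on Gm22133 were therefore the same 4 in which Ftl1 outnumbered its relative.

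**Figure D2:**
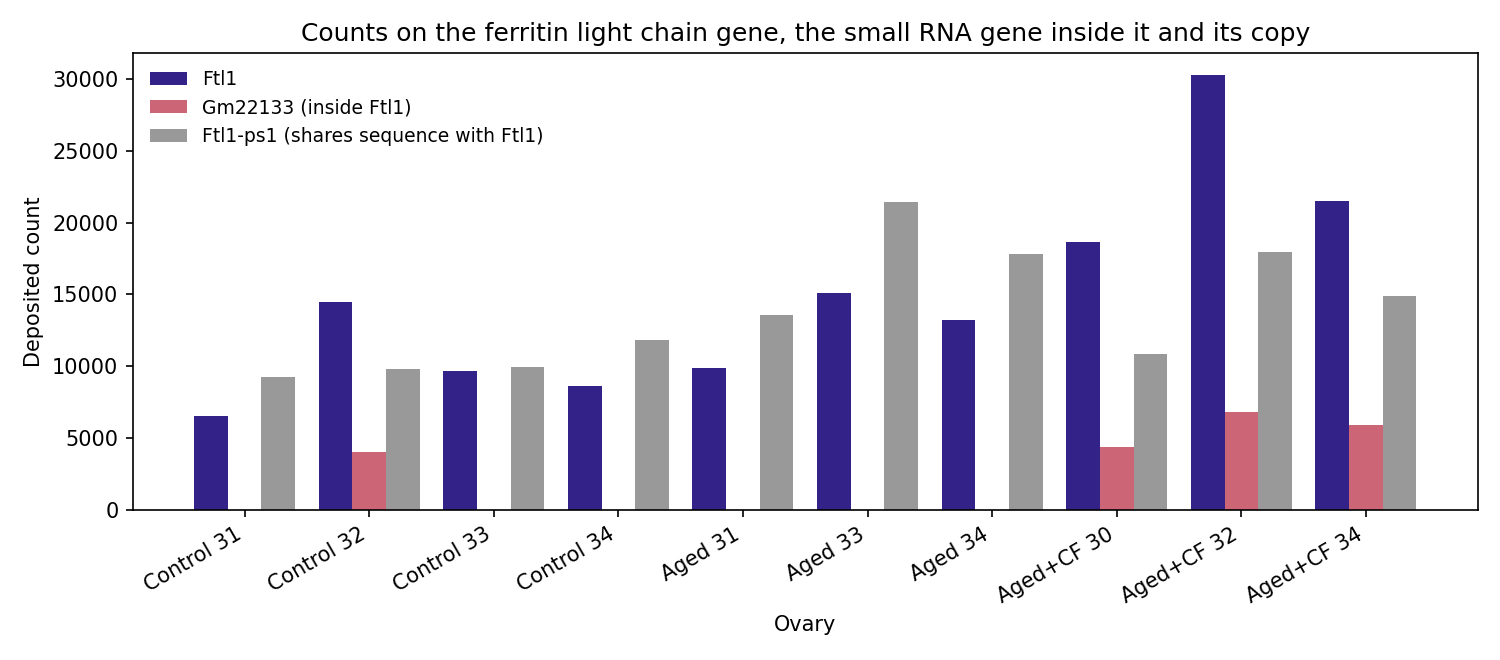
Deposited counts (vertical axis, from 0) of Ftl1, of Gm22133 inside it and of Ftl1-ps1 in each ovary (horizontal axis). Gm22133 has 4020 counts or more in Control 32 and the 3 Aged+CF ovaries and 1 count in each other ovary, and Ftl1 exceeds Ftl1-ps1 in those 4 libraries.

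The comparisons of Ftl1 read accordingly. As deposited, the log2 fold change of Ftl1 was 0.51 ± 0.33 with age (edgeR adjusted p = 0.323), 0.68 ± 0.35 with treatment (0.363) and 1.19 ± 0.33 between treated and Control ovaries (0.163), the last of which the DESeq2 Wald test called (0.0149). Among the 6 ovaries with 1 count on Gm22133, a choice made after seeing the data, the ageing comparison gave 0.84 ± 0.24 with an edgeR adjusted p of 0.116, and without Control 32 alone it was 0.84 as well. Other single ovaries moved the deposited values too: without Aged 33 they were 0.27 with age and 0.96 with treatment, and without Aged+CF 32 the treatment value was 0.39. Adding the Gm22133 counts to Ftl1 moved it to 0.36 with age and to 0.99 with treatment. Adding Ftl1-ps1 too, likewise chosen after seeing the data, gave 0.67 and 0.32. None of these sums and subsets passed the adjusted threshold in edgeR. Since every Aged+CF library had a high count on Gm22133 and every Aged library 1 count, the effect of CEFFE on Ftl1 and the difference in counting at its locus cannot be told apart. The difference between treated and Control ovaries carries the same doubt, because Control 32 alone of the Control libraries had a high count. Without Control 32 it was 1.52, with a high count in every Aged+CF library and 1 count in each remaining Control library.

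Ftl1-ps1, whose counts did not switch in this way, read 539, 610.3, 505 and 628 CPM in the Control ovaries, 809, 1512 and 983 in the Aged ovaries and 621, 1031 and 697 in the Aged+CF ovaries. All Aged ovaries lay above all Control ovaries. With age it was 1.93-fold higher, a log2 fold change of 0.95 ± 0.23 with an edgeR adjusted p of 0.0243, and under treatment it stood at −0.49 ± 0.25 (0.356). It is named after its values were seen. Reads from Ftl1 may also be counted on Ftl1-ps1, so its rise cannot be assigned to a single light chain gene. The treatment value of Ftl1-ps1 carries the same doubt about counting as that of Ftl1. The ratio of Ftl1 to Fth1 counts, which carries the same doubt, was 2.62 ± 0.96 (SD) in the 3 Aged+CF ovaries, 0.992 ± 0.292 in the 3 Aged and 1.2 ± 0.404 in the 4 Control ovaries.

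Gm22133 was not the only gene with such counts. Counts of 0 or 1 in some ovaries and of at least 30 in all the others were found in 37 genes, 27 of them tested. That count is of the pattern alone, and it takes in genes with graded levels in the other ovaries, such as the adipocyte gene Cfd at 0 CPM in Aged 33 and at 4.3 to 71.6 CPM elsewhere. The pseudogenes Rps18-ps4 and Rps18-ps6 traded places, the first with 2677 counts and the second with 0 in Control 31, and the reverse, 0 and 2643, in Control 32. The single gene called in the treatment comparison, Pet117, has this pattern: Aged 31, 33 and 34 gave it 68, 84 and 100 counts and every other ovary 1 count, and all its 50-base stretches occur in transcripts of Kat14, which overlaps it on the same strand. These genes were picked out after their values were seen. None of the 10 iron genes had such a pattern.

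Ceruloplasmin gave the clearest difference of the 10 genes. Cp (ENSMUSG00000003617, GRCm38 chr3:19957054-20009145, plus strand), the copper ferroxidase that oxidises iron as it leaves the cell, read 30, 22.3, 29.6 and 27.8 CPM in the Control ovaries. It read 52.9, 72.5 and 71.7 CPM in the Aged ovaries and 36.9, 41.9 and 45.1 in the Aged+CF ovaries. The 3 groups did not overlap at all, with Aged+CF between the others. The means were 65.7 ± 11.1 CPM (SD) over the 3 Aged ovaries, 41.3 ± 4.11 over the 3 Aged+CF and 27.4 ± 3.56 over the 4 Control ovaries. With age Cp rose 2.4-fold, a log2 fold change of 1.26 ± 0.15 with an edgeR adjusted p of 0.00358. Leaving out any single ovary gave 1.17 to 1.42. With the ovary number as a block its value was of similar size but missed the adjusted threshold. The labels do not pair ovaries by that number. Treated ovaries stood at −0.67 ± 0.16 against Aged and at 0.59 ± 0.15 against Control. Both values met the threshold by the unadjusted p and missed it by the adjusted one (edgeR adjusted p = 0.161 and 0.135), while the DESeq2 Wald test called both (0.00871 and 0.0142). With single ovaries left out the first was called by the unadjusted p in all 10 fits and the second in 7, and with library totals alone as scaling, at −0.58 and 0.55, both fell short of 1.5-fold. The gene Hps3 overlaps Cp on the opposite strand, at 21.9 ± 3.1, 26.9 ± 3.16 and 25.3 ± 2.31 CPM in Control, then Aged, then Aged+CF, and whether the counting used the strand of a read is not given.

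Ferroportin was not called in any comparison, by edgeR at the adjusted or the unadjusted p or by DESeq2 at its adjusted p. Slc40a1 (ENSMUSG00000025993, chr1:45908068-45926523, minus strand), the only known exporter of iron from cells, read 99.7, 97.6, 105 and 128 CPM in the Control ovaries, 86.5, 71 and 105 in the Aged ovaries and 109, 92 and 133 in the Aged+CF ovaries. The groups overlapped throughout. On the log2 scale it differed by −0.3 ± 0.17 with age and by 0.35 ± 0.18 with treatment, and neither passed (edgeR adjusted p = 0.253 and 0.358). Leaving out single ovaries moved these to between −0.41 and −0.14 and to between 0.19 and 0.48. Hephaestin, a membrane ferroxidase related to ceruloplasmin, had values in the other direction. Heph read 229, 294, 295 and 276 CPM in the Control ovaries and 136, 122 and 154 in the Aged ovaries, without overlap. With a log2 fold change of −0.99 ± 0.3 it met the threshold by the unadjusted p and missed it by the adjusted one (edgeR adjusted p = 0.0518). Hephaestin is named after its values were seen. The Aged+CF ovaries read 231, 90 and 266 CPM, a spread that covered the Aged range.

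Of the uptake genes none was called in any comparison, by edgeR at the adjusted or the unadjusted p or by DESeq2 at its adjusted p, and the transferrin receptor varied the most. Tfrc (ENSMUSG00000022797, chr16:32608920-32632794, plus strand) read 56.4, 40, 57.5 and 36.5 CPM in the Control ovaries, 117, 65.9 and 41.7 in the Aged ovaries and 49.7, 52.6 and 30 in the Aged+CF ovaries. Aged 31 and 33 exceeded all other ovaries, while Aged 34 lay inside the Control range. The log2 fold change of Tfrc with age was 0.65 ± 0.33 (edgeR adjusted p = 0.209), and it depended on single ovaries: 0.98 and called without Aged 34 (0.041), but 0.21 without Aged 31 (0.696). Under treatment it was −0.77 ± 0.36 (edgeR adjusted p = 0.323), and it became −0.3 without Aged 31 and −1.07 without Aged 34. As a share of Fth1 counts, Tfrc was 10.7 ± 3.37% (SD) in the 4 Control, 10.5 ± 8.03% in the 3 Aged and 9 ± 2.5% in the 3 Aged+CF ovaries, and the groups overlapped in this ratio of uptake to storage message. The Aged mean leaned on Aged 31, at 19.5% beside 7.99% and 4.05% in Aged 33 and 34.

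Transferrin is made mainly by the liver and also in other tissues. Trf (ENSMUSG00000032554, chr9:103204001-103230444, minus strand) read 73.7, 72.6, 89.5 and 69.1 CPM in the Control ovaries, 86.8, 84.6 and 162 in the Aged ovaries and 92.7, 102 and 91.1 in the Aged+CF ovaries. The high Aged value is that of Aged 34, and every Aged+CF ovary was above every Control ovary. With age Trf differed by 0.54 ± 0.21 on the log2 scale (edgeR adjusted p = 0.107), by 0.21 without Aged 34 and by 0.73 without Aged 33. It met the unadjusted threshold in 3 of the 10 fits with an ovary left out. With treatment it differed by −0.22 ± 0.23, which turned to 0.14 without Aged 34. Hepatocyte markers were near 0, summing to between 2.13 and 6.56 CPM over the 8 genes, with Ahsg the most abundant and Fgb at 0 in every ovary. Gm20425, which overlaps Trf on the same strand and shares sequence with it, is not in the deposited table. Slc11a2 (ENSMUSG00000023030, chr15:100387898-100425072, minus strand) stood at 66.5 ± 11.4 CPM (SD) in the 3 Aged, 58.9 ± 4.71 in the 4 Control and 59.2 ± 0.997 in the 3 Aged+CF ovaries. With age it differed by 0.17 on the log2 scale, by 0.29 without Aged 34 and by 0.05 without Aged 33.

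None of the genes of ferritin turnover and iron sensing was called in any comparison, by either p in edgeR or by DESeq2 at its adjusted p. Ncoa4 (ENSMUSG00000056234, chr14:32159865-32179855, plus strand) read 54.2, 47.7 and 44.2 CPM in Control 31, 33 and 34 and 14.3 in Control 32. The Aged ovaries read 54.2, 55 and 44.6 CPM and the Aged+CF ovaries 47, 54.4 and 53.7. Apart from Control 32 all ovaries lay in a narrow band, and the log2 fold change with age, 0.35 ± 0.34, became 0.07 without Control 32. A pseudogene on chromosome 12, Ncoa4-ps, shares 17.9% of the 50-base stretches of Ncoa4 transcripts, and 94.5% of its own occur in Ncoa4. Control 32 was also lowest there, at 47.6 CPM against 51.8 to 58.3 in the other Control ovaries, and why its Ncoa4 count was low was not tested.

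The iron regulatory proteins come from 2 genes. Aco1 (ENSMUSG00000028405, chr4:40143081-40198338, plus strand), whose protein is a cytosolic aconitase when it holds an iron-sulfur cluster, stood at 194 ± 26.7 CPM (SD) in the 3 Aged, 183 ± 3.06 in the 3 Aged+CF and 167 ± 12.5 in the 4 Control ovaries. Aco1 differed with age by 0.21 ± 0.11 on the log2 scale (edgeR adjusted p = 0.206). Aged 34, at 164 CPM, lay inside the Control range and Aged 31 and 33, at 201 and 216, above it. Without Aged 34 the value was 0.35, with an edgeR adjusted p of 0.0263 but short of 1.5-fold. Ireb2 (ENSMUSG00000032293, chr9:54863789-54912530, plus strand), which is degraded when iron is plentiful, stood at 132 ± 7.57, 140.4 ± 8.99 and 132 ± 9.93 CPM in the same groups. Ireb2 differed by 0 ± 0.09 with age and by 0.09 ± 0.09 with treatment on that scale. These proteins are regulated after their messages are made, so RNA levels do not measure their activity.

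What several of these messages share is the iron-responsive element, the hairpin that the iron regulatory proteins bind. The transcripts were searched for C, 5 bases, CAGTGN and 5 bases, where the 5 bases on either side of the loop pair with each other, G with T allowed. A match lay in the 5′ UTR of Ftl1, Fth1 and Slc40a1 and 4 lay in the 3′ UTR of Tfrc, and none in Trf, Slc11a2, Ncoa4, Aco1, Ireb2 or Cp. The search required all 5 bases to pair, so a hairpin with an unpaired base in that stretch would be missed. A gene without a match is therefore not shown to lack the element, and further elements in a gene with matches could be missed too. In all, 0.151% of 20597 genes with an annotated 5′ UTR and 0.614% of 20995 genes with a 3′ UTR held a match. The matches are shown because their place sets the known direction of control: at the 5′ end bound protein blocks translation, and at the 3′ end it protects the message from decay. Capitals mark CAGTGN, and positions are those of the 29 bases printed, in GRCm38, read 5′ to 3′ on the strand of the gene with T for U.
Ftl1 5′ UTR, chr7:45459779-45459807, minus strand: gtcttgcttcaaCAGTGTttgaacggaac
Fth1 5′ UTR, chr19:9982732-9982760, plus strand: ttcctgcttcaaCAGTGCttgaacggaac
Slc40a1 5′ UTR, chr1:45925465-45925493, minus strand: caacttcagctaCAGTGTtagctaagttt
Tfrc 3′ UTR, chr16:32631219-32631247, plus strand: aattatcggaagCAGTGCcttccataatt
Tfrc 3′ UTR, chr16:32631598-32631626, plus strand: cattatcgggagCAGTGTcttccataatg
Tfrc 3′ UTR, chr16:32631663-32631691, plus strand: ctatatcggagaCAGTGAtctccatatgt
Tfrc 3′ UTR, chr16:32631710-32631738, plus strand: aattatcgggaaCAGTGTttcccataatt
Of the genes with a match, Fth1 alone was called in Aged vs Control, and Cp, the other gene called, had none. A different motif, the core of the antioxidant response element, TGACNNNGC on either strand, was in 1 of 12 promoter windows of the iron genes, a window of Ncoa4, and in 12.4% of 32851 windows of all genes (RefSeq, GRCm38.p6, 300 bases each). Windows were at hand for 7 of the 10 genes.

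Markers of several cell types moved with the same comparison, in which 11.1% of all genes tested were called, 948 higher and 1148 lower. Macrophage markers summed to 752, 769, 870.1 and 882 CPM in the Control ovaries, to 1201, 1317 and 2449.8 in the Aged ovaries and to 1135, 1124 and 1241 in the Aged+CF ovaries. Aged 34 had the highest macrophage sum, the highest Fth1 and the lowest erythroid, luteal and endothelial sums of the Aged group. It is a single library, which also held oviduct reads (Ovgp1 at 245 CPM). All Aged+CF macrophage sums lay above all Control sums, and Fth1 overlapped between these groups. Of 15 tested macrophage markers 6 were called higher in Aged vs Control and none lower, and Lyz2 was the most abundant, at 958 CPM in Aged 34. Hmox1 and Cd163, markers of this list that handle heme and hemoglobin, were not called, at −0.28 ± 0.25 and 0.48 ± 0.31 on the log2 scale. Erythroid markers summed to 84.9, 115, 93 and 76.8 CPM in Control, to 422, 642 and 266 in Aged and to 148, 112 and 264 in Aged+CF, with 5 of 7 called higher in Aged vs Control and Hba-a1 the most abundant. Those called were the globin genes Hba-a1, Hba-a2, Hbb-bs and Hbb-bt, and Alas2. The other tested markers, Ermap and Epb42, were lower and not called, at −0.18 ± 0.45 and −1.27 ± 0.76 on the log2 scale. Luteal markers, led by Cyp11a1, had 9 of 10 called higher, at 10442 ± 2836 CPM (SD) over the 4 Control, 31541 ± 12828 over the 3 Aged and 20125 ± 5059 over the 3 Aged+CF ovaries. Endothelial markers had 4 of 8 called higher, with sums in the same order of 529 ± 41.2, 750.3 ± 81.8 and 592 ± 37.8 CPM and Cdh5 the most abundant. Lymphocyte markers had 6 of 9 called higher, at 18.5 ± 3.91, 979 ± 1466 and 37.9 ± 10.2 CPM. Ighm was the most abundant and read 1622 CPM in Aged 34. Without Aged 34 the Aged mean of the list was 135 CPM (n = 2), from 244 CPM in Aged 31 and 26.3 CPM in Aged 33. The sum in Aged 33 lay below that of every Aged+CF ovary. No marker of these 5 lists was at 0 in all ovaries. All 5 lists had their highest group mean in Aged, but they are grouped here as lists with several markers called higher with age. An Aged mean above the Control mean therefore follows from the grouping. The oviduct and hepatocyte lists also had their highest group mean in Aged, at 175 and 4.63 CPM. The part of cell make-up in the rise of Fth1 and Cp was not tested.

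Among the lists of other cell types the oocyte markers had the most genes called. Of 15 oocyte markers 12 were called lower in Aged vs Control, against the same 11.1% of all genes called in either direction, at 626 ± 101, 127 ± 78.3 and 264 ± 54.9 CPM (Control first, then Aged, then Aged+CF), with Padi6 the most abundant. Granulosa markers had 1 of 11 called, lower, a share no larger than that of all genes, at 8185 ± 1318, 5340.3 ± 1060 and 5185 ± 1266 CPM, led by Inha. Theca and interstitial markers had 1 of 7 higher and 2 lower, at 485 ± 154, 446 ± 274 and 343 ± 37.9 CPM. No oviduct or adipocyte marker was called by edgeR at the adjusted p, and their sums were 151 ± 193, 175 ± 233 and 103 ± 46.4 CPM and 88.4 ± 56.8, 85.9 ± 74.7 and 48.5 ± 4.5 CPM. These Aged means leaned on Aged 34: over Aged 31 and 33 alone they were 288 CPM for theca and interstitial, 42.1 for oviduct and 42.8 for adipocyte markers. The Control oviduct mean leaned on Control 33 in the same way, at 439 CPM beside 32, 59.5 and 75.3 in Control 31, 32 and 34. Without Control 33 and Aged 34, the ovaries with oviduct reads, Fth1 was 0.67 and Cp 1.27 on the log2 scale in Aged vs Control, both still called. That choice was made after seeing the data, and the part of oviduct tissue in these values was not tested.

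Around the 10 genes, 5 lists of the wider iron pathways held 95 genes, of which 91 were tested. In Aged vs Control 5 of the 91 were called (5.49%, against 11.1% of all genes tested), and all 5 were higher. By the unadjusted p it was 15, with 9 higher and 6 lower, against 18.2% of all genes. B2m, the partner of the hepcidin regulator Hfe and of class I histocompatibility proteins, rose from 228 ± 17.6 CPM in Control (SD, n = 4) to 454 ± 79.9 in Aged (n = 3), a log2 fold change of 0.99 ± 0.13 with an edgeR adjusted p of 0.00488. Tmprss6, the protease that restrains hepcidin signalling, had a log2 fold change of 2.09 ± 0.48 (edgeR adjusted p = 0.0194), and Alas2, the erythroid enzyme that begins heme synthesis, 1.58 ± 0.32 (0.0136). Alas2 also stands among the erythroid markers, and was at 5.93 CPM or less. Fdx1, the ferredoxin that passes electrons to steroid enzymes, had 1.32 ± 0.38 (0.0424) and the mitochondrial iron-sulfur protein Cisd3 0.86 ± 0.24 (0.0416). The calls of Tmprss6, Fdx1 and Cisd3 at the adjusted p were not kept in every fit with an ovary left out, and without Aged 33 the edgeR adjusted p was 0.119 for Fdx1, 0.12 for Cisd3 and 0.057 for Tmprss6. Without Control 32 or 34 that of Tmprss6 was 0.0592 or 0.0559, and Fdx1 and Cisd3 also lost the call when any single Control ovary was left out. The direction stayed: over these 10 fits the log2 fold change ran from 1.07 to 1.51 for Fdx1, from 1.41 to 2.51 for Tmprss6 and from 0.54 to 1.15 for Cisd3. By the unadjusted p Fdx1 and Tmprss6 were called in all 10 and Cisd3 in 9.

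**Figure D3:**
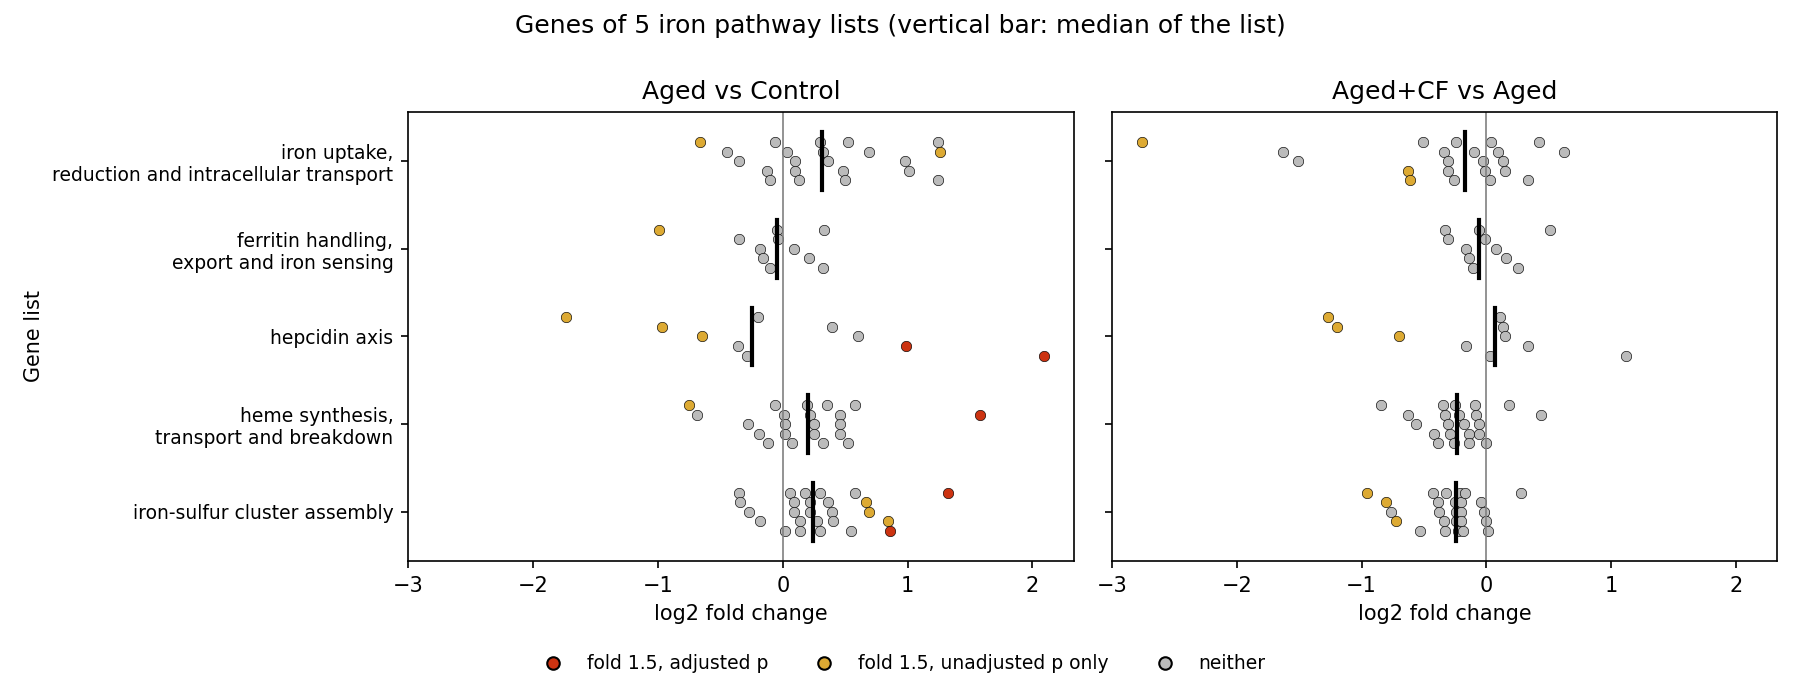
Log2 fold change (horizontal axis) of each tested gene of the 5 iron pathway lists, for Aged vs Control (left) and for Aged+CF vs Aged (right); colour gives the test passed and vertical bars the median of the list. In the iron-sulfur list 22 of 26 genes lie above 0 on the left and 23 of 26 below 0 on the right, comparisons that share the Aged ovaries. The median over all genes tested was 0 on the left and −0.02 on the right. On the left 2 of the 26 were called at the adjusted p (7.69%, against 11.1% of all genes).

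By list, the uptake genes had a median log2 fold change of 0.31 with age and −0.17 with treatment over 22 tested genes, and the iron-sulfur genes 0.25 and −0.24 over 26. The heme genes stood at 0.2 and −0.24 over 22, the ferritin handling and sensing genes at −0.05 and −0.06 over 11 and the hepcidin genes at −0.25 and 0.07 over 10. Hepcidin itself was hardly seen, with Hamp at 0.212 CPM or less in every ovary, and mitochondrial ferritin (Ftmt) had no count. Under treatment none of the 91 was called by edgeR at the adjusted p, and 9 met the unadjusted threshold, all lower, against 7.96% of all genes. Haptoglobin (Hp), which binds free hemoglobin, had the largest difference of these, at 28.8, 30.3 and 21.9 CPM in the Aged ovaries and 4.01, 4.94 and 3 in the Aged+CF ovaries. Its log2 fold change was −2.76 ± 0.78 with an edgeR adjusted p of 0.177. The Control ovaries ran from 1.68 to 28.5 CPM and overlapped both groups. Also in this set were Steap4 at −0.63 and Snx3 at −0.61 among the uptake genes, Tmprss6 at −1.27, Id1 at −1.2 and B2m at −0.7 of the hepcidin list, and Cisd1 at −0.96, Bola3 at −0.8 and Cisd3 at −0.72 of the iron-sulfur list. Most of these values leaned on single ovaries. Without Aged 33 Cisd1 was −0.54, Bola3 −0.46, Cisd3 −0.39, Tmprss6 −0.57 and Snx3 −0.5, all short of 1.5-fold. Without Aged 34 Steap4 was −0.55 and fell short, while Cisd1 at −1.26 and Cisd3 at −0.99 were called at the adjusted p. Only Hp, Id1 and B2m met the unadjusted threshold whichever ovary was left out, though Id1 was −0.74 without Aged 33. By the DESeq2 Wald test Hp, Steap4, Snx3, Id1, B2m, Cisd1 and Bola3 were also called at its adjusted p. Over all 18956 genes that test called 214 higher and 228 lower under treatment.

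The genes most like 3 of the iron genes were sought by Pearson correlation of log2 CPM over the 10 ovaries, among 16744 genes, as a description in which group differences and cell make-up are shared. For Fth1 they were AU021092 (r = 0.97), the extracellular superoxide dismutase Sod3 (0.97) and Phyh (0.96). Sod3 read 123 to 140.2 CPM in Control, 163 to 256 in Aged and 128 to 142 in Aged+CF, so that like Fth1 it was high in the Aged ovaries only. For Tfrc they were Parvb (0.96), H4c12 (0.95) and Snap91 (0.94), and Parvb read 299 CPM in Aged 31, the ovary in which Tfrc was highest. For Slc40a1 they were Slc35f2 (0.97), Asph (0.96) and Gnb4 (0.94).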

How the data were processed

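The authors aligned the reads with TopHat and deposited a raw read count per gene for each ovary; the submitters' processing notes also name Cufflinks 2.1.1 and the genome build GRCm38.p4, and the counting tool and its use of strand are not given. The deposited FPKM values were found to equal the count divided by the library total and by 1 length per gene, and were used only to order levels. Counts were analysed in R 4.3.3 with edgeR 4.0.16: genes were kept by filterByExpr, libraries scaled by TMM, and all 10 ovaries fitted with a mean per group in the quasi-likelihood model, with Benjamini-Hochberg adjustment over 18956 genes. SE is that of the log2 fold change. DESeq2 1.42.0 was used for its size factors and Wald test as alternatives. Other alternatives were library totals, no filter, fits of only the 2 groups compared, the ovary number as a block, leaving out each ovary in turn, and, chosen after seeing the data, leaving out both ovaries with oviduct reads, the 6 ovaries with 1 count on Gm22133, and sums over Ftl1 or Ncoa4 and their relatives. Gene positions, overlaps and transcript sequences came from GENCODE M21 on GRCm38. Pathway genes were named by a rule: up to 4 rises and 4 falls a list among genes called in Aged vs Control, and up to 3 of each by the unadjusted p in Aged+CF vs Aged, at a mean of at least 1 CPM. Exceptions are marked as named after their values were seen. The genes, lists and rules were chosen with earlier results of these data known. The fit was tested on simulated data. Directions and sizes were recovered there, but most of the genes given a change were not called at these group sizes, and a first requirement on the share recovered was not met and was replaced. A gene not called is therefore not shown to be unchanged.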

Additional observations from a re-analysis of the deposited data

How the results depend on the processing

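With few ovaries a group, a gene that missed the threshold was not shown to be the same in both groups. Of the log2 fold changes recomputed for the named genes, 679 kept their direction and their side of the threshold, 18 passed it anew, 34 no longer did and 27 changed sign, all of the last in genes that were not called. Leaving out each ovary in turn gave 1081 to 3112 genes called in Aged vs Control, 1 to 556 in Aged+CF vs Aged and 7 to 348 in Aged+CF vs Control, and 2 to 3 iron genes in Aged vs Control, with 0 in the others. The unadjusted p gave 3456, 1509 and 1457 genes in the 3 comparisons and 2 iron genes in each of the last 2. Aged+CF vs Aged called 2 genes with library totals, 2 without a filter, 2 with only the 2 groups fitted and 442 by DESeq2's Wald test. The Wald test called 528 genes in Aged+CF vs Control, only the 2 groups fitted 487. It called 2 iron genes in each of these comparisons, and only the 2 groups fitted called 1, Cp, in Aged+CF vs Control. Without both ovaries with oviduct reads the counts were 289 and 159. With the ovary number as a block they were 80, 0 and 9 genes and 0 iron genes in Aged vs Control, where Fth1 stood at 0.86 (edgeR adjusted p = 0.0593) and Cp at 1.19 (0.0503). The numbers do not pair ovaries by the labels, and not every ovary correlated best with its own number in that comparison (r = 0.14, −0.18 and 0.07). Changes of sign were small. For Aco1 in Aged+CF vs Aged they were 0.02 with library totals, 0.02 with the block and −0.2 to 0 leaving out ovaries. For Ireb2 in Aged vs Control they were 0.02 with DESeq2's size factors, 0.02 by the Wald test, 0.05 without both oviduct ovaries and −0.04 to 0.06 leaving out ovaries. For Ncoa4 in Aged+CF vs Aged they were 0 with only the 2 groups fitted, −0.09 without both oviduct ovaries and −0.09 to 0.07 leaving out ovaries. For Trf in Aged+CF vs Aged they were 0.14 and −0.38 to 0.14 in the latter 2 settings. In Aged+CF vs Control, Fth1 was −0.13, Slc40a1 −0.03 and Tfrc 0.1 with the block, Slc11a2 −0.03 with library totals and Tfrc 0.02 without both oviduct ovaries. Leaving out ovaries gave −0.04 to 0.04 for Slc11a2, −0.07 to 0.17 for Slc40a1 and −0.26 to 0.13 for Tfrc there. The causes of these shifts were not tested.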
